A study of Mus musculus and Mus musculus x Mus spretus with 8 samples.

Results

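Potassium channels of the two-pore (K2P) family carry the background, or leak, current that holds a resting cell at a negative membrane potential. Each subunit has a pair of pore loops, 2 subunits form 1 channel, and the subfamilies differ in what opens or closes them. Closing the acid-sensitive TASK channels depolarises the glomus cells of the carotid body, the arterial oxygen sensor, and calcium entry and transmitter release follow. The genes described here are the 10 listed Kcnk genes Kcnk1, Kcnk2, Kcnk3, Kcnk4, Kcnk5, Kcnk6, Kcnk9, Kcnk10, Kcnk12 and Kcnk13, chosen by name among 24060 gene symbols. The other 4 Kcnk symbols of the table, Kcnk7, Kcnk15, Kcnk16 and Kcnk18, are given beside them.

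The data are from 8 single mouse cells, each labelled a glomus cell of the carotid body, all wild type and from postnatal day 4 to 5. The strain label is C57BL/6 for 7 of them and C57BL/6 X SPRET/EiJ, a cross between 2 mouse species, for cell 2. All were selected for expressing Th, Uchl1 and Kcnk3, so the presence of Kcnk3 is no finding. Each cell is 1 library, with 3960200 to 30218206 counted reads, the most in cell 2. The labels name no animal, so the 8 cells count as 1 sample. Medians, ranges and SDs describe these cells, and no p-value was computed. Levels are RPM, reads scaled to a total of 1000000 counted reads in each cell, and detection means at least 1 RPM. Where no read was counted, up to 3 may have been missed, a limit of 0.0993 RPM in cell 2 and of 0.758 RPM in cell 1, which had the fewest reads. These limits, and the exact Poisson 95% intervals below, cover counting error only, since reads copied by PCR are not independent molecules.

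The label was checked against 12 glomus markers, of which Th, Uchl1 and Kcnk3 had been used to select the cells and check nothing. Each of the remaining 9 reached 1 RPM in at least 6 cells. The sum of these 9 was lowest in cell 4, at 8818 RPM, against 15751 to 26151 RPM in the other 7 cells. The gap was largely Epas1, which encodes a hypoxia-inducible factor subunit, at 170 RPM in cell 4 and 5590 to 12192 RPM elsewhere. Without Epas1 the sum was 8648 RPM in cell 4 and 7860 to 18197 RPM in the others, with the lowest value in cell 6. Chgb and Rgs5 were also lowest in cell 4, while Slc18a2 and Phox2a were second highest there. Markers of sympathetic or sensory neurons summed to 11221 RPM in cell 4 and to 156 to 3469 RPM in the others. Cell 4 alone had Nefl (1143 RPM) and Prph (223 RPM) at 1 RPM or more, and Nefh, of the same list, had 0 reads there and reached 104 to 613 RPM in 6 other cells. Beside these counts, 14.2% of all symbols were detected in at least 6 cells, 44.8% in at least 1 cell and 55.2% in none. Of the other marker lists, red blood cell and immune genes were detected in 0 of 8 cells. Fibroblast genes were at 1 RPM or more for 1 of 6 members (sum 0 to 184 RPM), mural genes for 4 of 7 (0 to 356 RPM) and glial genes for 2 of 8 (0 to 154 RPM). Among 7 endothelial markers Cldn5 was detected in 6 cells and Egfl7 in 3 (sum 0 to 2730 RPM), while Pecam1, Cdh5, Kdr, Tek and Emcn had 0 reads in every cell.

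Because the family members are related, it matters whether reads of one could be counted to another. The stretches below are 69 bases of the coding strand, 5′ to 3′, around the first selectivity filter, the part of the pore through which potassium passes. They come from GENCODE M21 transcripts of mm10 and show the TASK genes Kcnk3 and Kcnk9 and the TREK genes Kcnk2 and Kcnk10. Capitals mark the 3 filter codons.
Kcnk3: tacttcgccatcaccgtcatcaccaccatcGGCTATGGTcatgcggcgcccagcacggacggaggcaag
Kcnk9: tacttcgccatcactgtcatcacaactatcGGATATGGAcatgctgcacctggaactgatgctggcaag
Kcnk2: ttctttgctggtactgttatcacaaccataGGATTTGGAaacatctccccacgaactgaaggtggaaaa
Kcnk10: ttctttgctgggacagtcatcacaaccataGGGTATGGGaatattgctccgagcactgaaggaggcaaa
Kcnk9 matched Kcnk3 at 55 of the 69 bases, Kcnk10 at 49 and Kcnk2 at 41. The codon after the filter is cat, for histidine, in both TASK genes; a histidine at this place is known as the proton sensor of TASK channels. Runs of identical bases were sought on the same strand in 1 transcript per gene, that with the longest coding sequence. For Kcnk2 this transcript has 1548 bases, and the longest annotated transcript has 3572. The longest run was 20 between Kcnk3 and Kcnk9, 20 between Kcnk3 and Kcnk2 and 17 between Kcnk2 and Kcnk10. The longest run in any pair of these transcripts was 26, between Kcnk12 and Kcnk13. The read length is not given in the sources used here. Reads longer than these runs would not match 2 of the compared transcripts exactly on the same strand, and other transcripts of these genes were not compared. Matches with differing bases or on the opposite strand are not covered. The runs therefore cannot settle whether reads of one gene were counted to another.

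Of the TASK genes, Kcnk3 (TASK-1; chromosome 5, 30588170 to 30625271, plus strand, mm10) was present in all 8 cells, as the selection required. Its level was 2212, 1563, 1425, 521, 1342, 1034, 199 and 1849 RPM in cells 1 to 8. The median was 1384 RPM (SD 666, n = 8 cells) and the highest level was 11.1 times the lowest. Cells 4 and 7 lay low and the other 6 lay between 1034 and 2212 RPM, a 2.14-fold range. The spread is far wider than the counting error, since the interval is 188 to 210 RPM in cell 7 and 2166 to 2259 RPM in cell 1. No interval overlapped that of another cell, and the closest were those of cell 5, which ended at 1377 RPM, and cell 3, which began at 1393 RPM. The intervals treat reads copied by PCR as independent and leave out capture and amplification. Their separation therefore does not measure differences between the cells themselves.

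The place of Kcnk3 among all symbols is given as a description, since the cells were selected for it. It ranked 18th by RPM in cell 1, 21st in cell 8, 42nd in cell 2, 51st in cell 3 and 87th in cell 5, and so within the highest 100 symbols in 5 of 8 cells. The rank was 133 in cell 6, 491 in cell 4 and 1513 in cell 7. It took from 0.0199% to 0.221% of a cell's reads. The hybrid cell 2 lay inside the range of the others. Of the annotated transcript of 3811 bases, 7.98% has near-identical copies in transcripts of other genes. The overlapping gene Gm9899 is counted among them, so not all of this share lies elsewhere in the genome. Gm9899, annotated over part of it on the opposite strand, had 13 reads in cell 6 and 0 reads in the other cells.

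**Figure D1:**
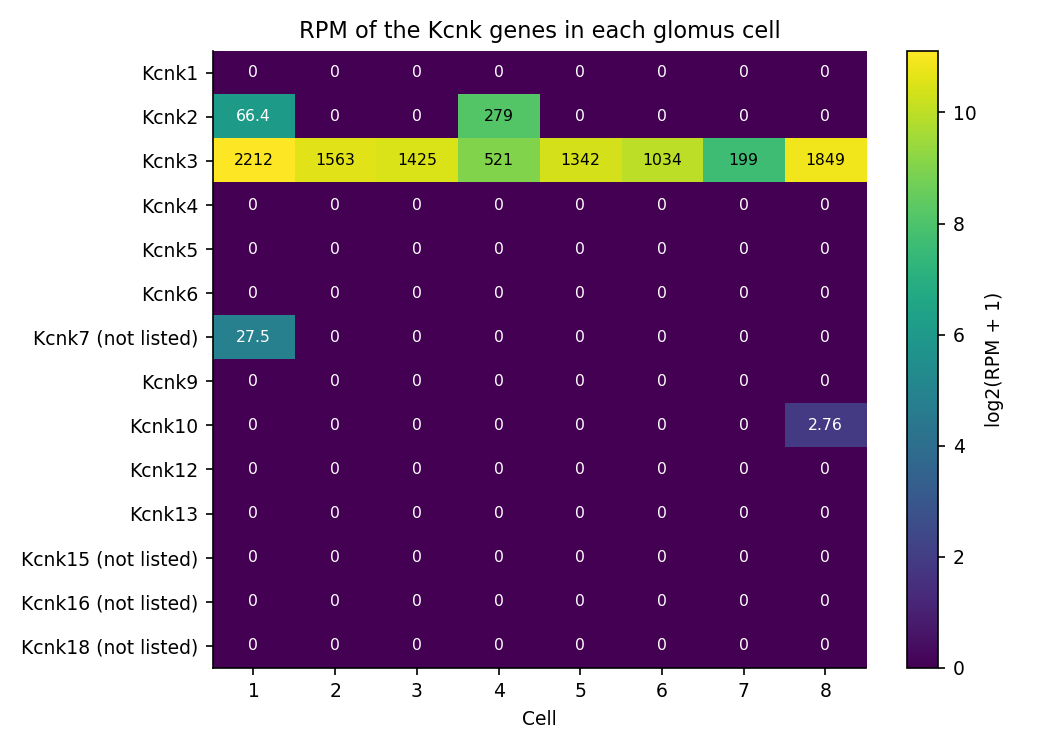
Deposited RPM of the 14 Kcnk symbols (rows) in cells 1 to 8 (columns), with colour giving log2(RPM + 1) and the printed number the RPM. Kcnk3 is filled in every column, Kcnk2 in cells 1 and 4, Kcnk10 in cell 8 and Kcnk7 in cell 1, and all other squares are 0.

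Kcnk3 was set beside the other genes used to pick the cells. Th, which encodes tyrosine hydroxylase, was also low in cells 4 and 7, at 972 and 764 RPM, and stood at 1190 to 3785 RPM in the rest. Pearson's r between log2(RPM + 1) of Kcnk3 and Th was 0.65 over the 8 cells and Spearman's rho 0.36. Without cells 4 and 7, the 2 farthest from the Kcnk3 median, r was -0.53 over 6 cells, so the positive value rests on those 2 cells. Uchl1, which encodes a ubiquitin hydrolase, was highest in cell 4 (2201 RPM), where Kcnk3 was second lowest, and gave r = -0.25 and rho = -0.19 (r = 0.13 without cells 4 and 7). The points share the library of each cell, and r here describes these cells only.

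**Figure D2:**
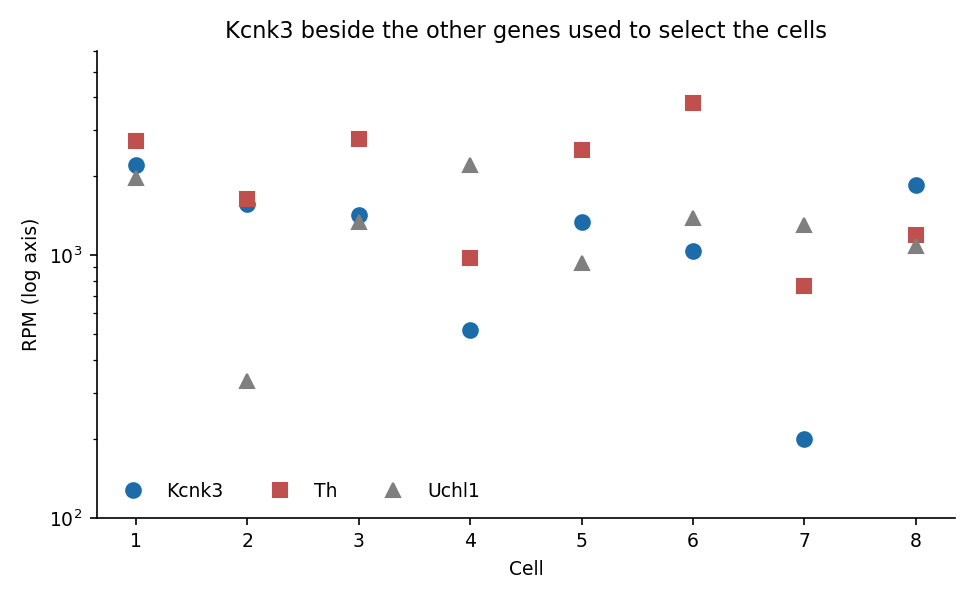
RPM (log axis) of Kcnk3 (circles), Th (squares) and Uchl1 (triangles) in each of the 8 cells. Kcnk3 falls to 521 RPM in cell 4 and 199 RPM in cell 7, while Uchl1 stays at 2201 and 1305 RPM there.

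Kcnk9 (TASK-3; chromosome 15, 72501089 to 72546340, minus strand), the acid-sensitive subunit that can pair with TASK-1 in a mixed channel, had 0 reads in all 8 cells. Kcnk15 (TASK-5), not known to carry current by itself, also had 0 reads. Transcripts of different genes were compared per kilobase of the longest annotated transcript. With Kcnk9 placed at the 3 reads per cell that 0 allows, Kcnk3 was at least 1388-fold higher in cell 7, where it was lowest, and at least 50811-fold higher in cell 2. The long annotated Kcnk9 transcript (12300 bases) adds to these bounds, and so does the depth of cell 2 (30218206 reads). These bounds, and those for other genes below, cover counting error only. A transcript lost before amplification would leave 0 reads at any level, so they are not limits on expression. The direction follows from the selection for Kcnk3, and only the size of the gap is described.

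Among the TREK and TRAAK genes, whose channels open with membrane stretch, warmth and arachidonic acid, Kcnk2 (TREK-1; chromosome 1, 189207930 to 189402273, minus strand) was detected in 2 cells. It stood at 66.4 RPM in cell 1 (263 reads, interval 58.6 to 74.9 RPM) and at 279 RPM in cell 4 (1377 reads, 264 to 294 RPM), and no read was counted in the remaining 6. A430027H14Rik is annotated over part of its exons on the opposite strand, and without a stated strand setting reads of the pair cannot be told apart. The level in cell 4 was 4.19 times that in cell 1. Per kilobase, Kcnk3 was 31.2 times Kcnk2 in cell 1 but 1.75 times in cell 4. In the 6 cells with no Kcnk2 reads, Kcnk3 was higher by at least 403-fold, the bound in cell 7. On the scale of log2(RPM per kilobase + 1) the difference had a median of 8.28 (SD 2.84) over the 8 cells, but in the 6 cells without Kcnk2 reads it is set by the pseudocount and lies below the bounds of 403-fold to 14756-fold from the 3-read limit. Among the cells with reads of both, cell 4 was the one in which the 2 transcripts came closest, with Kcnk3 low and Kcnk2 high at once. Cell 4 is also the cell with the lowest sum of the 9 glomus markers (8818 RPM, with the limits given above) and the highest neuron marker sum (11221 RPM); the part of this in the Kcnk2 level was not tested. Cell 1, the other cell with Kcnk2, had marker sums within the range of the rest (19410 RPM for the 9 glomus and 2191 RPM for neuron markers). Without cell 4, Kcnk2 was detected in 1 of the remaining cells.

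Detection in exactly 2 cells was common in these libraries. Of 1517 symbols detected in exactly 2 cells, 80 were found in cells 1 and 4, Kcnk2 and 79 others. The 28 pairs of cells shared 17 to 137 such symbols, with a median of 41.5.

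Kcnk10 (TREK-2; chromosome 12, 98429437 to 98578310, minus strand) was detected in cell 8 alone, with 19 reads (2.76 RPM, interval 1.66 to 4.31 RPM). Per kilobase it lay 1313 times below Kcnk3 in that cell. Kcnk4 (TRAAK; chromosome 19, 6923966 to 6934515, minus strand), the remaining gene of the subfamily, had 0 reads in every cell, with bounds on the ratio of Kcnk3 from 286-fold in cell 7 to 10480-fold in cell 2.

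The other listed genes were not detected. Kcnk1 (TWIK-1; chromosome 8, 125995170 to 126030685, plus strand) and Kcnk6 (TWIK-2; chromosome 7, 29221926 to 29232515, minus strand), whose channels pass small currents and reside largely inside cells, had 0 reads in all 8 cells. Their relative Kcnk7, not known to form a working channel, had 109 reads in cell 1 (27.5 RPM, interval 22.6 to 33.2 RPM) and 0 elsewhere. Kcnk5 (TASK-2; chromosome 14, 20140057 to 20181809, minus strand), which opens with alkaline pH and despite its name belongs with the TALK channels, had 0 reads in all 8 cells. So did Kcnk12 (THIK-2; chromosome 17, 87745801 to 87797994, minus strand) and Kcnk13 (THIK-1; chromosome 12, 99964499 to 100062682, plus strand), whose channels are inhibited by halothane. Kcnk16 (TALK-1) and Kcnk18 (TRESK) had 0 reads as well. Pooled over the 69360751 reads of all cells, 0 reads allow a level of up to 0.0433 RPM. Among the listed genes the lowest bound was for Kcnk12, at least 223-fold below Kcnk3 in cell 7.

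In all, 1 of the 10 listed genes was detected in at least 6 cells, Kcnk3 by selection, against 14.2% of the 24060 symbols. Detection in at least 1 cell held for 3 of 10, against 44.8% of symbols, and 7 of 10 were in no cell, against 55.2%. With 10 genes, 1 of them chosen for being present, these counts lie near the background and are a description only. Cells 1, 4 and 8 held 2 listed genes each and the other 5 cells held Kcnk3 alone. Per kilobase, Kcnk3 made up 96.9% of the summed level of the listed genes in cell 1, 63.7% in cell 4, 99.9% in cell 8 and 100% in the others.

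Kcnk3 was next set among 77 genes for alpha subunits of potassium channels, as a description, since selecting cells for Kcnk3 favours a high place. Per kilobase of transcript it was the highest of the 77 in all 8 cells, at 580, 410, 374, 137, 352, 271, 52.2 and 485 RPM per kilobase in cells 1 to 8. The next gene was Kcnc4 in cells 1, 3 and 8, Kcnh2 in cells 2, 5 and 7, Kcnc1 in cell 6 and Kcnk2 in cell 4. The margin was widest in cell 6 (9.71-fold) and narrowest in cell 7 (1.29-fold over Kcnh2). By RPM without length, Kcnk3 was highest in 7 cells and in place 3 in cell 7. Its share of the summed potassium channel level per kilobase had a median of 60.4% and was lowest in cells 7 (26.9%) and 4 (29.6%).

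**Figure D3:**
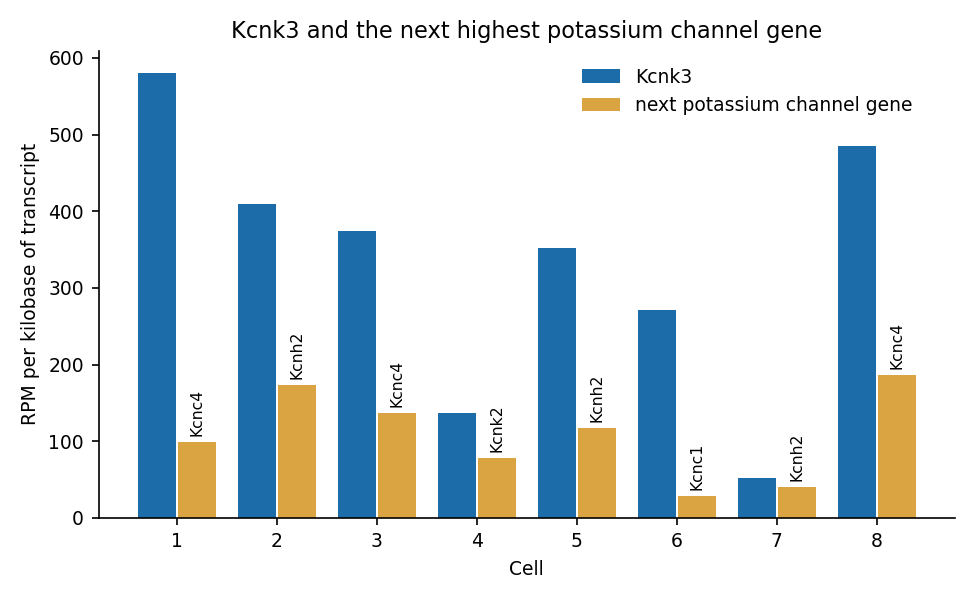
Level per kilobase of transcript of Kcnk3 (blue bars) and of the next highest of 77 potassium channel genes, named above its bar (yellow), in each of the 8 cells. The bars are closest in cell 7 (52.2 against 40.5) and cell 4 (137 against 78.0, where the next gene is Kcnk2).

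Among 40 voltage-gated genes, detection in at least 6 cells held for 5 (12.5%, against 14.2% of all symbols), in 1 to 5 cells for 9, and 26 were not detected (65.0%, against 55.2%), so their shares lie near the background. Kcnc4 (median 108 RPM), Kcnc1 (48.8 RPM) and Kcnh2 (25.3 RPM) were in 6 cells each. Kcnh2, which encodes the ERG channel, ranged from 0 to 731 RPM and was highest in the hybrid cell 2. No inward rectifier gene reached 6 cells, with 13 of 15 not detected at all, and no calcium- or sodium-activated gene did, with 4 of 8 not detected at all. Of all 14 Kcnk symbols, 10 were not detected (71.4%).

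Genes that act on TASK or TREK channels were described as counts of detected members. Of 59 measured, 29 reached 1 RPM in 6 cells or more (49.2%, against 14.2% of all symbols), and the median of their median levels was 5.19 RPM against 0 RPM over all symbols. All symbols include the 55.2% detected in no cell, and other lists of genes were not compared. The difference is therefore a description and not a trait of TASK or TREK partners. The 14-3-3 proteins bind the end of TASK-1 and promote its exit to the cell surface, and 5 of 7 were found in 6 cells or more. Ywhag had a median of 1208 RPM, Ywhae 1159 RPM and Ywhaz 1081 RPM, and Ywhag stood at 1.59 RPM in cell 2, the hybrid cell. The COPI coat, which retrieves TASK-1 to the endoplasmic reticulum, had 7 of 7 members in at least 6 cells, with Copg1 (155 RPM), Copa (133 RPM) and Copz1 (115 RPM) highest. S100a10, which encodes p11, another protein that binds TASK-1, was detected in 2 cells and reached 106 RPM in cell 4, and its partner Anxa2 in none.

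The Gq pathway closes TASK channels when hormone or transmitter receptors are active. Of 8 genes for Gq alpha subunits and phospholipase C beta, 3 were in at least 6 cells. Of all symbols, 14.2% were in at least 6 cells and 55.2% in none. Gna11 had a median of 389 RPM and was in all 8 cells, Gnaq had 383 RPM in 7 cells and Plcb4 70.7 RPM in 7 cells, while Plcb1 was in 2 cells and Gna14, Gna15, Plcb2 and Plcb3 in none. Gnaq had 1 read in cell 8 (0.145 RPM) and reached 1032 RPM in cell 4. Of 9 protein kinase C genes 3 were in at least 6 cells, against the same 14.2%. They were Prkce (661 RPM), Prkca (298 RPM) and Prkcb (81.6 RPM), and these counts are a description only.

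Partners of TREK channels were present in part. Beside the counts here stand the shares over all symbols, 14.2% in at least 6 cells and 55.2% in none. Of 7 measured, Sort1, the sortilin that escorts TREK-1, was detected in 8 cells with a median of 273 RPM, and Map2, which binds TREK channels, in 8 cells with 83.7 RPM. The anchoring protein gene Akap5 was in 1 cell, and Pld2, Bves, Popdc2 and Popdc3 were in none. In the SUMO pathway, proposed to silence K2P channels, 7 of 12 genes were in at least 6 cells, led by Uba2 (324 RPM), Senp6 (201 RPM) and Senp2 (37.6 RPM). Among 7 genes of TASK trafficking, Psd (49.9 RPM) and Arf6 (17.0 RPM), which act in endocytosis, were in 7 cells each. Stx8 was in 3 cells (median 0.480 RPM), and Psd4 and the caveolin genes Cav1, Cav2 and Cav3 were in none.

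**Figure D4:**
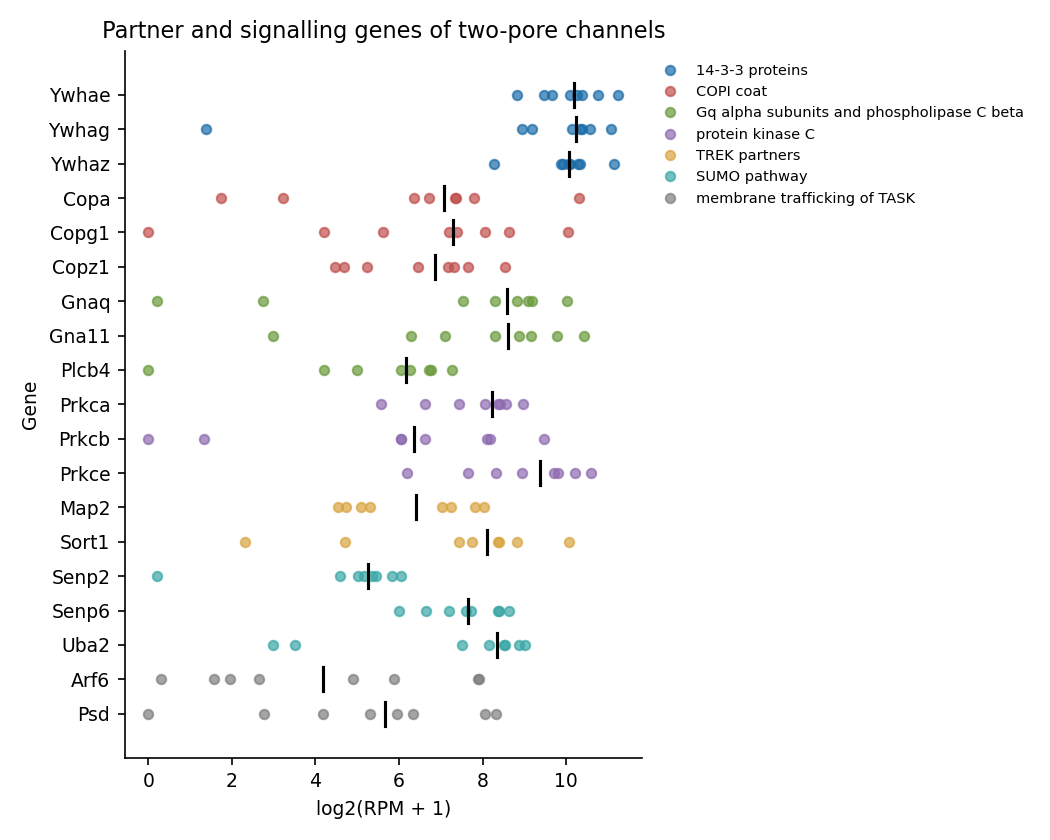
Levels as log2(RPM + 1) of up to 3 genes of each partner list, with 1 point per cell and a black bar at the median. The 14-3-3 genes stand highest, with medians of 1081 to 1208 RPM, and 7 of the 19 genes have a cell under 1 RPM.

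Across cells, the 5 genes whose pattern was most like that of Kcnk3 were Ahcyl2, Atf4, Fos, Pdzd8 and Ube2l3. Likeness was Pearson's r of log2(RPM + 1) over 8 cells, each its own library, among 3421 genes detected in at least 6 cells. In each cell the values of both genes come from the same library. In the order above, r was 0.95, 0.94, 0.94, 0.94 and 0.91. Of these genes 7 had r of 0.9 or more, and the median r was 0.00. All 5 had 0 reads or 1 read in cell 7 and their levels in cell 4 were below those of the other 6 cells. Without cells 4 and 7, r was 0.75, 0.81, 0.44, 0.51 and -0.16, so the likeness rests largely on those 2 cells. Atf4, which encodes a transcription factor of the stress response, had the highest of these values. It stood at 759 RPM in cell 1, 722 in cell 2 and 319 in cell 8, and at 55.6 to 106 RPM in cells 3 to 6. Fos, an immediate early gene, ranged from 0 RPM in cell 7 to 6103 RPM in cell 1.

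**Figure D5:**
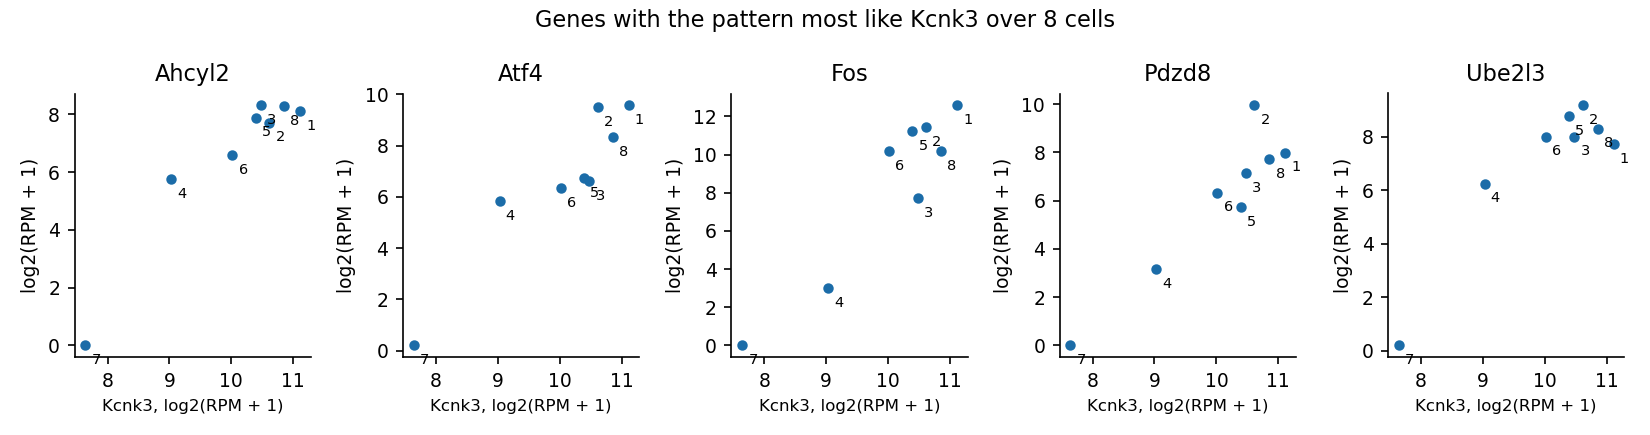
Each panel plots log2(RPM + 1) of 1 gene against log2(RPM + 1) of Kcnk3, with 1 numbered point per cell. Cell 7 lies at the lower left of every panel and cell 4 next to it, and the other 6 cells form a loose group in which Ube2l3 has r = -0.16.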

How the data were processed

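For each of 8 cells the authors deposited a read count and an RPM value for 24060 gene symbols, per the file headers. Reads were aligned with Bowtie to mm10, per the submitters' processing notes, after PCR amplification of the cDNA and a Nextera library, per the labels' protocols. The annotation, strand setting, read length and handling of reads with several matches are not stated in these sources. By its values, RPM is the count over the cell's total, times 1000000, so depth is corrected for and length is not.

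The cells form 1 group, described without a test. Counts gave the Poisson intervals, and log2 levels used a pseudocount of 1, which understates differences near 0. Each library was taken as 1 cell, with no doublet caller. Positions, lengths (longest transcript) and sequences (transcript with the longest coding sequence) came from GENCODE M21, on the same build, by symbol. Filter codons were the first in-frame match to ACN NNN GGN, then TAC, TAT, TTC or TTT, then GGN. Copies were found with blastn 2.17.0 (97% identity over 50 bases or more). Kcnq1ot1 and Kcnd3os, which encode no channel, were left out. Python 3.11.15, numpy 2.4.6, pandas 2.3.3 and scipy 1.17.1 were used. The ranking by likeness was run on simulated data with planted near copies of the Kcnk3 pattern. That run checks the calculation only and gives no support to the 5 genes named.

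The listed genes, gene lists and naming rule were chosen with earlier results of these data known. The text names all Kcnk symbols, up to 3 members per list with the highest median RPM among those in at least 6 cells, potassium channel genes in at least 6 cells and the 5 genes most like Kcnk3; some genes the rule takes are not reported here; other genes were named after their values were seen. Alternatives were another detection limit, pseudocount, scaling, length and measure of likeness, and leaving out each cell.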

Additional observations from a re-analysis of the deposited data

Results flagged for a closer look

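Of 33 named genes with a level in at least 1 cell, 9 had 1 cell that stood apart from the other 7. The gap to the nearest cell was more than 0.526 of the range. That limit flags about 1 in 20 groups by chance for normally distributed values. RPM of single cells is skewed, so the 9 cannot be set against that rate. A gene with reads in 1 cell only is always flagged. Kcnk2 stood at 279 RPM in cell 4, with 66.4 RPM in cell 1 as the next level. Kcnk7 stood at 27.5 RPM in cell 1 and Kcnk10 at 2.76 RPM in cell 8, each with 0 RPM in all other cells. Among partner genes, Copa reached 1271 RPM in cell 5 (next 222 RPM), Copg1 1049 RPM in cell 3 (next 397 RPM), Prkcb 713 RPM in cell 4 (next 289 RPM) and Sort1 1078 RPM in cell 6 (next 455 RPM). Among the genes most like Kcnk3, Fos reached 6103 RPM in cell 1 (next 2801 RPM) and Pdzd8 984 RPM in cell 2 (next 253 RPM).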

How the results depend on the processing

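The number of listed genes in at least 6 cells was 1 under every detection limit and with any 1 cell left out. The number in no cell was 7, or 8 without cell 8, the cell with Kcnk10, and 8 at a limit of 10 RPM. The Kcnk3 median was 1342 to 1425 RPM with 1 cell left out and 1697 RPM when scaled to the reads outside the 100 highest genes. The SD of its log2 level, 1.15, was 0.68 to 1.24 with 1 cell left out, the lowest without cell 7, where the highest level was 4.25 times the lowest instead of 11.1. The median difference of Kcnk3 and Kcnk2 per kilobase was 11.59 log2 units with a pseudocount of 0.1 instead of 8.28, since Kcnk2 is at 0 in most cells, and 8.09 to 8.46 with 1 cell left out. Of the 5 genes most like Kcnk3, 2 remained by Spearman's rho and 0 to 5 with 1 cell left out, 0 of them without cell 7, 2 without cell 4 or cell 8 and 3 without cell 3 or cell 6. The comparison of Kcnk3 with other channel genes by RPM and by coding length was added after the data were seen; by coding length Kcnk3 was highest in 8 cells. No paired analysis was possible because the labels name 1 group. Depth limits what 0 reads can show, and a transcript lost before amplification leaves none.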
